A study of Mus musculus with 8 samples.

Results

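Transcripts of 8 genes for renal sodium and water handling were compared in mouse kidney at day 14. They encode the alpha, beta and gamma subunits of the epithelial sodium channel ENaC (Scnn1a, Scnn1b and Scnn1g), the mineralocorticoid receptor (Nr3c2) and the enzyme that protects it (Hsd11b2), the regulators Sgk1 and Nedd4l, and the vasopressin V2 receptor (Avpr2). The members were taken by gene symbol from the deposited expression table, where all 8 were found among 34745 genes, and all 8 had enough counts to be tested. The samples were bulk RNA-seq libraries of renal tissue from mice labelled wild type. Kidneys were labelled uIRI with MSC transplantation (n = 3, here uIRI+MSC), uIRI without such cells (n = 3) or sham (n = 2). The labels do not spell out uIRI or MSC, which in the renal literature stand for unilateral ischaemia-reperfusion injury and mesenchymal stem or stromal cells. Nothing used here gives the strain, age or sex of the mice, or the source, dose and timing of the cells. Whether each library had its own animal is not labelled, so p-values measure only the spread between these samples, which may be technical.

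In the distal part of the nephron, principal cells and connecting tubule cells take up sodium from the urine through ENaC, a channel in the apical membrane assembled from the alpha, beta and gamma subunits. Aldosterone, acting through the mineralocorticoid receptor, increases channel activity. Cortisol and corticosterone bind the same receptor, and 11-beta-hydroxysteroid dehydrogenase type 2, the product of Hsd11b2, inactivates them in these cells. The kinase SGK1 is induced by corticosteroids and phosphorylates the ubiquitin ligase NEDD4-2, the product of Nedd4l, which otherwise removes ENaC from the membrane. Vasopressin acts through the V2 receptor and cyclic AMP to bring aquaporin-2 to the apical membrane and to raise sodium uptake. In whole tissue, fewer cells of a type and less RNA per cell cannot be told apart.

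Library depth was 11592986 to 22652718 counts in uIRI+MSC, 18426077 to 24300112 in uIRI and 14185677 to 14588506 in sham. Values are given in CPM, the read count relative to library size, scaled by the trimmed mean of M values (TMM), and changes as log2 fold changes from the quasi-likelihood test of edgeR with p-values adjusted over 16576 genes and called at 0.05. Errors of log2 changes are SE and those of means are SD. The scaling bears on every comparison with sham. For uIRI against sham the all-gene median log2 change was 0.06 with TMM and 0.73 with library size alone. It was -0.01 and -0.16 for uIRI+MSC against uIRI, and 0.03 and 0.55 for uIRI+MSC against sham. All changes are given relative to the TMM scaling. Transcripts of mitochondrial DNA took 6.07 to 11.3% of the counts in uIRI+MSC, 3.49 to 4.84% in uIRI and 14.2% in both sham libraries. Collecting duct transcripts were present. Aqp2, the vasopressin-regulated water channel of principal cells, stood at 20.9, 27.4 and 25.6 CPM in uIRI+MSC, at 3.91, 16 and 16.2 CPM in uIRI and at 165 and 313 CPM in sham. Slc14a2, a urea transporter gene named after its values were seen, differed widely between the sham libraries, at 3.4 and 151 CPM in sham 1 and 2. It stood at 3.1, 0.0715 and 9.07 CPM in uIRI+MSC and at 22.6, 26.5 and 28.6 CPM in uIRI. How much of each kidney region a library held was not tested.

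RefSeq promoter windows of GRCm38.p6 were at hand for 5 of the 8 members, namely Scnn1b, Scnn1g, Nr3c2, Sgk1 and Avpr2. Each window runs from 250 bases before to 50 bases after an annotated start. The 250 bases before the start are shown for the neighbouring subunit genes Scnn1g and Scnn1b. Both passed the test in uIRI against sham with TMM but not with library size alone. Scnn1a, which had no window, passed as well. The same bases are shown for the Sgk1 start whose window holds a full corticosteroid response element, and for Avpr2. Avpr2 had the most negative log2 change of the members in uIRI against sham. Capitals mark matches, on either strand, to 6 motifs: the corticosteroid response element (AGAACA, any 3 bases, then TGTTCT), its single arm AGAACA, the cyclic AMP motif TGACG, the E-box CACGTG, the AP-1 motif TGANTCA and the TATA box TATAAA.
Scnn1g, chr7:121734229-121734478, plus strand: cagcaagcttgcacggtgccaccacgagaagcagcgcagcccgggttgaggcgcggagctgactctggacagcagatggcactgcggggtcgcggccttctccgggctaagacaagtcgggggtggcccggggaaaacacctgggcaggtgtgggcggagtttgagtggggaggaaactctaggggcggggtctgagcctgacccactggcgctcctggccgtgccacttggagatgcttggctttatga
Scnn1b, chr7:121864788-121865037, plus strand: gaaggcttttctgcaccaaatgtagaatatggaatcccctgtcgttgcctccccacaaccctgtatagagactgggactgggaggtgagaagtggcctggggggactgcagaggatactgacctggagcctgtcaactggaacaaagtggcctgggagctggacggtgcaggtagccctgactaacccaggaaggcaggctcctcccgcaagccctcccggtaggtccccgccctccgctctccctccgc
Sgk1, chr10:21993640-21993889, plus strand: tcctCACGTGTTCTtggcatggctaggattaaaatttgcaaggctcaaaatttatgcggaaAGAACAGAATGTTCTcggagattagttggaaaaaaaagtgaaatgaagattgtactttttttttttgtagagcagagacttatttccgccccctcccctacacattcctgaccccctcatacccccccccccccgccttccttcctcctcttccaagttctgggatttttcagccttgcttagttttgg
Avpr2, chrX:73891852-73892101, plus strand: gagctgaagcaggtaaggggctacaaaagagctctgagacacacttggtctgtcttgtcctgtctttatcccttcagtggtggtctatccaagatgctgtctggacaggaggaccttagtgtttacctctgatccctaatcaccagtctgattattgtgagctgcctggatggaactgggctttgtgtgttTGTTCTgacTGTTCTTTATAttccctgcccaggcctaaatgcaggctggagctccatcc
The windows of Scnn1g, Scnn1b and Nr3c2 held no match to any of the 6 motifs. Of the 6 Sgk1 windows, the one shown held the element as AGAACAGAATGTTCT, beginning 189 bases before the start. The full element was found in 3 of 32851 windows (0.00913%) of the mouse genome. Further upstream, an E-box 246 bases before the start shares bases with a single arm at 242. Of the other Sgk1 windows, some held a single arm, TGACG or a TATA box, and none the full element. The Avpr2 window held single arms 59 and 50 bases before the start, the nearer of which shares a base with a TATA box match at 45, all of them read on the minus strand. Single arms stood in 19.0% of all windows, TGACG in 20.8%, the E-box in 7.15%, the AP-1 motif in 7.81% and the TATA box in 13.6%. These matches describe the letters of the windows and say nothing of binding.

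Of the 8 genes 5 fell in uIRI against sham, namely Scnn1a, Scnn1b, Scnn1g, Nedd4l and Avpr2, and none rose. The vasopressin receptor and the alpha subunit were the furthest below sham, while Nr3c2, Hsd11b2 and Sgk1 did not pass the test. Falls and rises were common in this comparison. Of all 16576 genes, 54.6% passed, 28.3% higher and 26.3% lower. The 2 groups did not overlap in 5 of the 8 members, against 77.1% of all genes. The median log2 change of the members was -0.68, against 0.06 over all genes. With library size alone that median was -0.02 against 0.73 over all genes, and Scnn1a and Avpr2 were the members still called. Against sham, uIRI+MSC libraries had Scnn1a and Avpr2 fallen, and 6 members did not pass, beside 42.4% of all genes called (22.1% higher, 20.3% lower). The groups did not overlap in 4 members, against 64.2% of all genes. Between uIRI+MSC and uIRI none of the 8 members passed, and 0% of all 16576 genes did by edgeR, while 3418 (20.6%) had an unadjusted p under 0.05, among them Scnn1b and Scnn1g. Limma-voom called 0 genes and DESeq2 1364. Both comparisons with sham use the same sham libraries, and each group enters 2 of the 3 comparisons.

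**Figure D1:**
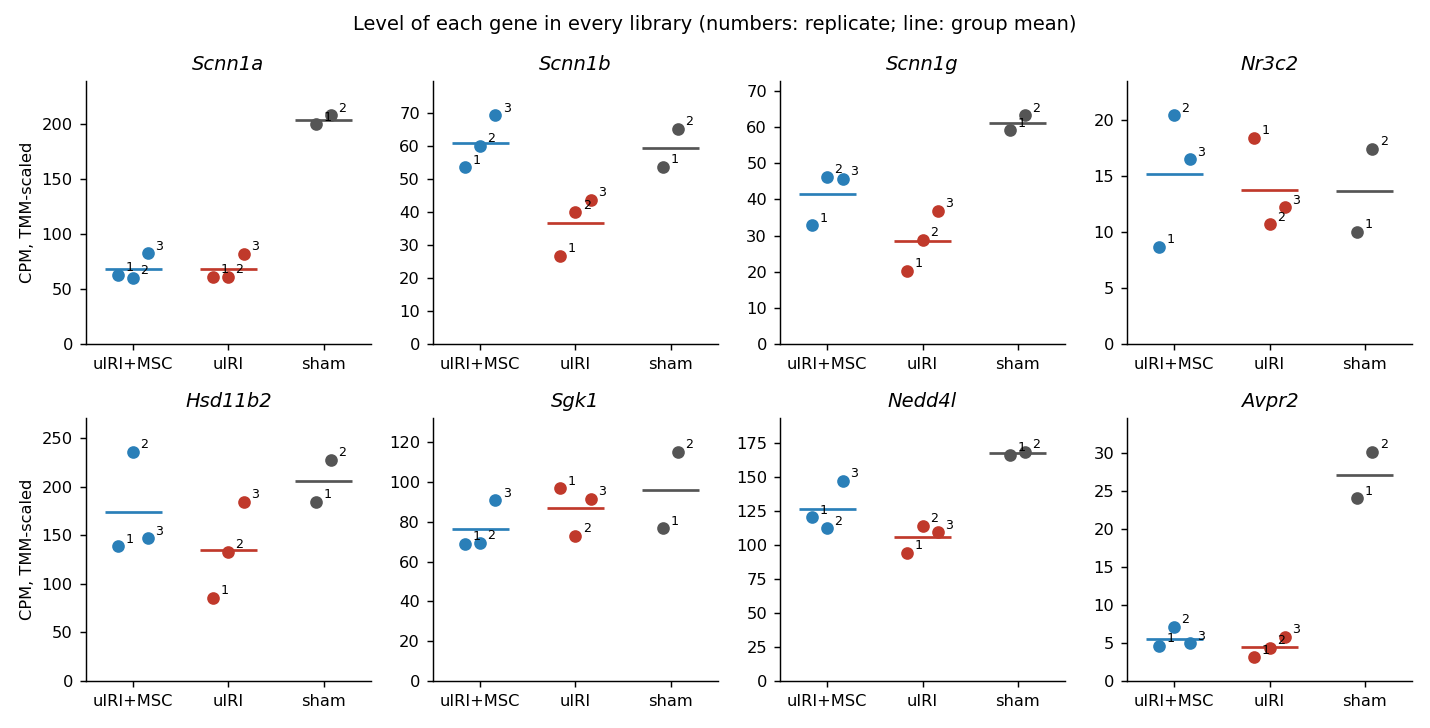
Level of each of the 8 genes in TMM-scaled CPM (y axis, from 0) in every library of uIRI+MSC, uIRI and sham (x axis). Points are libraries with their replicate numbers and lines are group means. Scnn1a and Avpr2 in all 6 uIRI+MSC and uIRI libraries lie far below both sham libraries, and the Scnn1b values of uIRI+MSC (53.7 to 69.4 CPM) lie above those of uIRI (26.8 to 43.8 CPM).

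**Figure D2:**
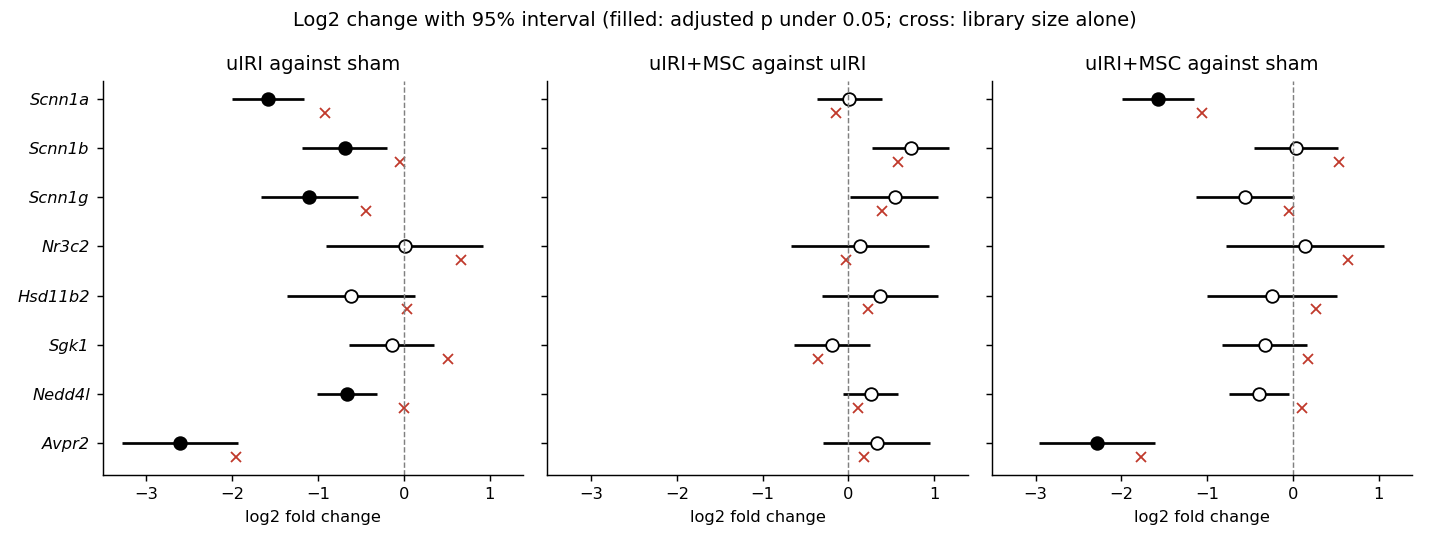
Log2 fold change of the 8 genes (x axis) with its 95% interval in the 3 comparisons. Filled circles have an adjusted p under 0.05 by edgeR and crosses give the change with library size alone. Filled circles stand at 5 genes in uIRI against sham, at none in uIRI+MSC against uIRI and at 2 in uIRI+MSC against sham.

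Scnn1a (ENSMUSG00000030340, chromosome 6, 125320659 to 125344943 on GRCm38, plus strand) encodes the alpha subunit, without which the channel conducts little current. Its level was 63.3, 60.5 and 82.6 CPM in uIRI+MSC, 61.3, 61.4 and 81.9 CPM in uIRI, and 200 and 208 CPM in sham. The uIRI+MSC and uIRI libraries covered the same range, well below both sham libraries. Scnn1a fell by 1.58 ± 0.18 in uIRI against sham (95% interval -2 to -1.16, adjusted p = 0.000197) and by 1.57 ± 0.18 in uIRI+MSC against sham (adjusted p = 0.000416). Between uIRI+MSC and uIRI the log2 change was 0.01 ± 0.17 (95% interval -0.37 to 0.39, adjusted p = 0.979).

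Scnn1b (ENSMUSG00000030873, chromosome 7, 121865038 to 121918514, plus strand) encodes the beta subunit, which with gamma brings the channel to the membrane and carries a PY motif that NEDD4-2 binds. Its level was 53.7, 60.2 and 69.4 CPM in uIRI+MSC, 26.8, 40 and 43.8 CPM in uIRI, and 53.8 and 65.3 CPM in sham. The uIRI libraries lay below all others, and the uIRI+MSC libraries spanned the sham range. Scnn1b fell by 0.69 ± 0.22 in uIRI against sham (adjusted p = 0.0244). That call rested on both sham libraries, with a log2 change of -0.80 (adjusted p = 0.0568) without sham 1 and -0.52 (adjusted p = 0.171) without sham 2, and with library size alone it was -0.04 (adjusted p = 0.878). The log2 change was 0.73 ± 0.20 in uIRI+MSC against uIRI (95% interval 0.28 to 1.17, unadjusted p = 0.00516 and adjusted p = 0.123 by edgeR), higher in every library of uIRI+MSC than in any of uIRI. This was the member whose uIRI+MSC and uIRI libraries did not overlap, where 26.9% of all genes did not. DESeq2 called it at an adjusted p of 0.0235 and limma-voom did not, and over all alternatives the adjusted p ran from 0.0235 to 0.241. Against sham, the uIRI+MSC log2 change was 0.04 ± 0.22 (95% interval -0.46 to 0.53, adjusted p = 0.911).

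Scnn1g (ENSMUSG00000000216, chromosome 7, 121734479 to 121768475, plus strand) encodes the gamma subunit, the site where proteases such as prostasin cut the channel to activate it, and ends 96562 bases before the start of Scnn1b. Its level was 32.8, 46.2 and 45.7 CPM in uIRI+MSC, 20.2, 28.8 and 36.9 CPM in uIRI, and 59.1 and 63.2 CPM in sham. The sham libraries lay above all others, and uIRI+MSC 1 fell inside the uIRI range. Scnn1g fell by 1.10 ± 0.25 in uIRI against sham (adjusted p = 0.00552), a call lost with library size alone (log2 change -0.44, adjusted p = 0.134). Between uIRI+MSC and uIRI the log2 change was 0.54 ± 0.23 (95% interval 0.02 to 1.05, unadjusted p = 0.042 and adjusted p = 0.227 by edgeR). The uIRI+MSC against sham change was -0.56 ± 0.25 (adjusted p = 0.102), and without uIRI 1, a library outside that comparison but in the shared fit, it was -0.56 with an adjusted p of 0.0461.

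Nr3c2 (ENSMUSG00000031618, chromosome 8, 76899442 to 77245012, plus strand), the gene of the mineralocorticoid receptor, stood at 8.67, 20.4 and 16.5 CPM in uIRI+MSC, 18.4, 10.7 and 12.2 CPM in uIRI, and 10 and 17.4 CPM in sham. Libraries of every group covered much the same range. The log2 change was 0.01 ± 0.40 in uIRI against sham (adjusted p = 0.99, 95% interval -0.91 to 0.92). It was 0.13 ± 0.35 in uIRI+MSC against uIRI (adjusted p = 0.864) and 0.14 ± 0.40 in uIRI+MSC against sham (adjusted p = 0.804), and all 3 signs turned when single libraries were left out. A non-coding gene on the opposite strand, Gm10649, shares 247 exon bases with Nr3c2 and had at most 1 count in a library.

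Hsd11b2 (ENSMUSG00000031891, chromosome 8, 105518746 to 105523984, plus strand) had 139, 236 and 147 CPM in uIRI+MSC, 86, 133 and 185 CPM in uIRI, and 185 and 228 CPM in sham. The uIRI libraries were widely spread, and uIRI 3 was at the level of sham 1. The log2 change of -0.62 ± 0.33 in uIRI against sham did not pass (adjusted p = 0.143, 95% interval -1.36 to 0.13). Without uIRI 3 it was -0.91 with an adjusted p of 0.045. It was 0.37 ± 0.30 in uIRI+MSC against uIRI (adjusted p = 0.513) and -0.25 ± 0.33 in uIRI+MSC against sham (adjusted p = 0.578).

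Sgk1 (ENSMUSG00000019970, chromosome 10, 21882184 to 21999903, plus strand), the corticosteroid-induced kinase gene whose window above holds the full response element, stood at 68.8, 69.3 and 90.8 CPM in uIRI+MSC, 96.7, 72.8 and 91.5 CPM in uIRI, and 76.7 and 115 CPM in sham. The 3 groups overlapped. The log2 change was -0.14 ± 0.22 in uIRI against sham (adjusted p = 0.601, 95% interval -0.64 to 0.35), -0.19 ± 0.19 in uIRI+MSC against uIRI (adjusted p = 0.614) and -0.33 ± 0.22 in uIRI+MSC against sham (adjusted p = 0.245). With library size alone the sign turned in both comparisons with sham, to 0.52 in uIRI and 0.17 in uIRI+MSC, neither of which passed.

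Nedd4l (ENSMUSG00000024589, chromosome 18, 64887756 to 65217826, plus strand), the ligase gene, stood at 120, 112 and 147 CPM in uIRI+MSC, 94.1, 114 and 109 CPM in uIRI, and 166 and 168 CPM in sham. Both sham libraries lay above all the others, and uIRI+MSC and uIRI overlapped. Nedd4l fell by 0.66 ± 0.15 in uIRI against sham (adjusted p = 0.00644), but its change was 0 (adjusted p = 0.986) with library size alone. For uIRI+MSC against sham the log2 change was -0.40 ± 0.15 (adjusted p = 0.065), and without uIRI+MSC 3 it was -0.49 with an adjusted p of 0.0225. Against uIRI, the uIRI+MSC log2 change was 0.26 ± 0.14 (adjusted p = 0.332).

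Avpr2 (ENSMUSG00000031390, chromosome X, 73892102 to 73895502, plus strand), the V2 receptor gene, had few counts. Its level was 4.61, 7.15 and 4.95 CPM in uIRI+MSC (110, 100 and 59 counts), 3.13, 4.36 and 5.84 CPM in uIRI (93, 119 and 124 counts), and 24 and 30.1 CPM in sham (247 and 327 counts). Every uIRI+MSC and uIRI library lay far below both sham libraries. Avpr2 fell by 2.61 ± 0.30 in uIRI against sham (adjusted p = 0.000177), a fold change of 6.11, and by 2.28 ± 0.30 in uIRI+MSC against sham (adjusted p = 0.000653). Relative to uIRI, uIRI+MSC had a log2 change of 0.33 ± 0.27 (adjusted p = 0.535). These counts are uncertain, since Arhgap4 on the opposite strand shares 2347 exon bases, 81.3% of the Avpr2 exons, and no source used here states the strand setting of the counts. Arhgap4 moved the other way, with 24.2, 30.4 and 24.4 CPM in uIRI+MSC, 36.4, 33.4 and 40.8 CPM in uIRI, and 9.04 and 12.4 CPM in sham. It rose by 1.78 ± 0.20 in uIRI against sham (adjusted p = 0.00016). How the shared bases were counted was not tested.

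Ratios between subunits within a library do not depend on the scaling between libraries. The ratio of Scnn1b to Scnn1a in deposited FPKM was 2.39, 2.8 and 2.37 in uIRI+MSC, 1.23, 1.84 and 1.5 in uIRI, and 0.757 and 0.883 in sham. The 3 groups did not overlap on this ratio. On the log2 scale its mean differed by 0.88 for uIRI minus sham, by 0.74 for uIRI+MSC minus uIRI and by 1.62 for uIRI+MSC minus sham. The ratio of Scnn1g to Scnn1a was 1.92, 2.83 and 2.05 in uIRI+MSC, 1.22, 1.74 and 1.67 in uIRI, and 1.09 and 1.12 in sham, again without overlap, and its log2 differences were 0.46, 0.55 and 1.01 in the same order. The ratio of Scnn1g to Scnn1b was 0.804, 1.01 and 0.866 in uIRI+MSC, 0.989, 0.947 and 1.11 in uIRI, and 1.44 and 1.27 in sham. On this ratio both injured groups lay below sham and overlapped each other. Exact, 2-sided permutation tests could not go below p = 0.2 for 3 libraries against 2 or p = 0.1 for 3 against 3. Of 18 comparisons on 6 ratios, none passed. The exact p was 0.2 for each of these comparisons with sham (0.4 after Benjamini-Hochberg adjustment), 0.1 for Scnn1b to Scnn1a and for Scnn1g to Scnn1a in uIRI+MSC against uIRI (0.4 adjusted), and 0.3 for Scnn1g to Scnn1b (0.514 adjusted).

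**Figure D3:**
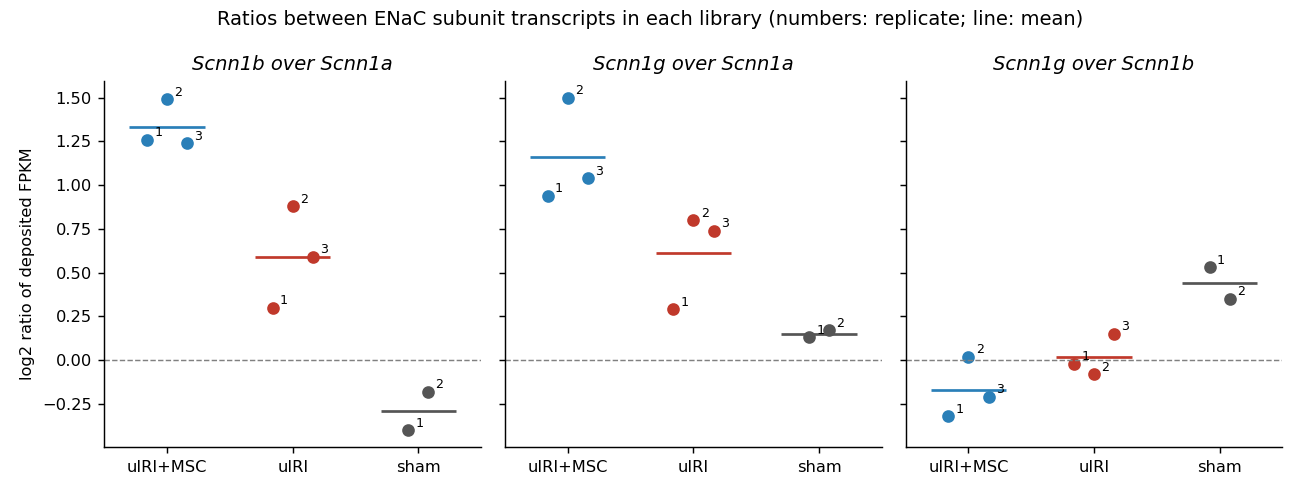
Log2 ratio of deposited FPKM (y axis) between pairs of ENaC subunit transcripts in each library of uIRI+MSC, uIRI and sham (x axis). Points are libraries with replicate numbers and lines are group means. The mean log2 ratio of Scnn1b to Scnn1a is 1.33 in uIRI+MSC, 0.59 in uIRI and -0.29 in sham.

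The other ratios overlapped between groups in every comparison with sham. Hsd11b2 to Nr3c2, the protecting enzyme to its receptor, was 122, 87.6 and 67.3 in uIRI+MSC, 35.4, 94.6 and 114 in uIRI, and 140 and 99.1 in sham. Nr3c2 to Nr3c1, the mineralocorticoid to the glucocorticoid receptor, was 0.147, 0.324 and 0.138 in uIRI+MSC, 0.315, 0.113 and 0.21 in uIRI, and 0.0969 and 0.158 in sham. Sgk1 to Nedd4l was 0.483, 0.523 and 0.519 in uIRI+MSC, 0.866, 0.539 and 0.708 in uIRI, and 0.389 and 0.579 in sham. The uIRI+MSC values of this last ratio lay just below those of uIRI (exact permutation p = 0.1, 0.4 adjusted), and both overlapped sham.

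Comparing levels between genes needs a gene length, and the deposited FPKM uses an inflated one for some members. For 66.7% of 11960 genes with over 200 counts in the deepest library, the length implied by FPKM equalled, within 0.1%, the summed lengths of all distinct annotated exons, with overlapping exons counted repeatedly. The implied length was 11082 bases for Scnn1a, 3934 for Scnn1b and 2991 for Scnn1g, while their longest transcripts have 3499, 2591 and 2991 bases. In deposited FPKM, Scnn1a averaged 6.5 ± 0.997 in uIRI+MSC, 7.18 ± 1.19 in uIRI and 13.6 ± 1.13 in sham, and Scnn1g averaged 14.6 ± 2.63 in uIRI+MSC, 11.1 ± 2.99 in uIRI and 15.1 ± 1.63 in sham. In CPM per kilobase of the longest transcript, Scnn1a averaged 20.6 ± 3.13 in uIRI+MSC, 22.7 ± 3.78 in uIRI and 43.0 ± 3.68 in sham. On that scale, which is unscaled by TMM, alpha was the most abundant subunit transcript in uIRI and sham, while in uIRI+MSC it overlapped Scnn1b at 24.7 ± 2.8 in the same group. The order of the subunits within a group therefore turned with the length used, while ratios between groups did not.

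**Figure D4:**
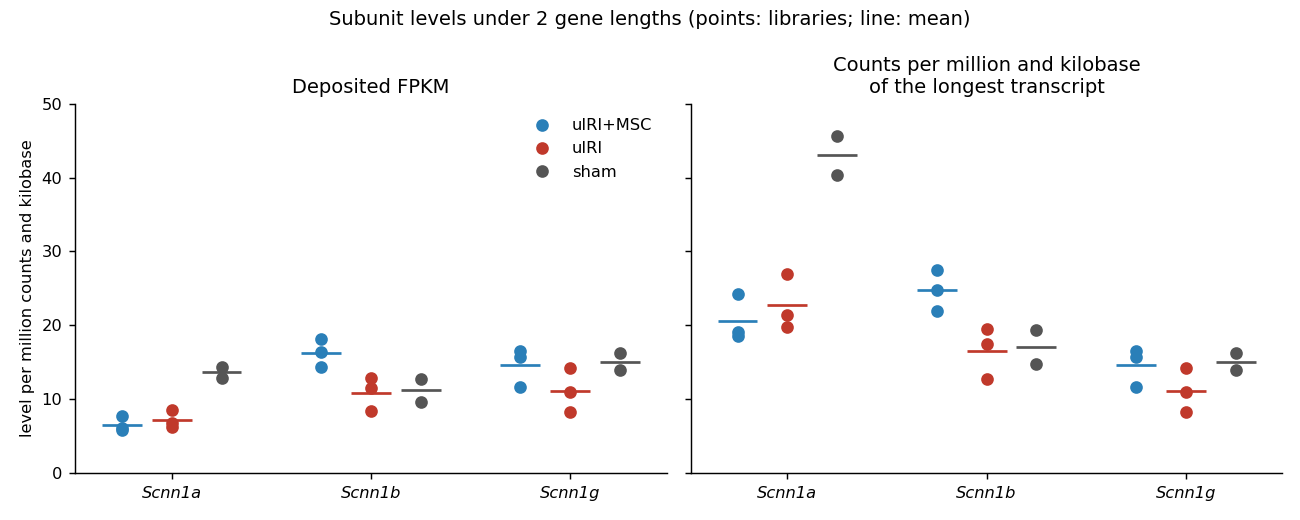
Level of the ENaC subunit transcripts in CPM per kilobase (y axes, from 0, not TMM-scaled) with the gene length of the deposited FPKM (left) and of the longest transcript (right). Points are libraries of uIRI+MSC, uIRI and sham and lines are group means. In sham, Scnn1a stands at 13.6 on the left and 43.0 on the right.

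Per kilobase of the longest transcript, Hsd11b2 was the most abundant member in every group, at 99.7 ± 32.4 in uIRI+MSC, 85.0 ± 29.6 in uIRI and 82.8 ± 17.0 in sham. Levels in this paragraph are not scaled by TMM and serve to order genes within a group. Changes between groups are those given above, such as the TMM-scaled means of Hsd11b2 of 135 CPM in uIRI and 206 CPM in sham. The mean of Sgk1 came next in uIRI+MSC (25.8 ± 3.73), where it overlapped Scnn1b, and in uIRI (32.9 ± 5.94), where it overlapped Scnn1a, while in sham it stood at 23.0 ± 7.78, below Scnn1a. Scnn1b, Nedd4l and Scnn1g followed within one another's range in sham, between 13.9 and 19.3. Nr3c2 stood at 2.70 ± 1.08 in uIRI+MSC, 2.74 ± 0.932 in uIRI and 1.72 ± 0.75 in sham, and Avpr2 at 2.10 ± 0.553 in uIRI+MSC, 1.85 ± 0.525 in uIRI and 7.17 ± 1.55 in sham. Nr3c2 and Avpr2 overlapped in uIRI+MSC and in uIRI, and Avpr2 lay above Nr3c2 in sham. The places of Sgk1 and Nedd4l rested on the length. With merged exons, Sgk1 stood at 16.3 ± 2.34 in uIRI+MSC, with a mean below those of Scnn1b and Scnn1a, at 20.8 ± 3.7 in uIRI, and at 14.5 ± 4.95 in sham, with a mean below those of Scnn1a, Scnn1b and Scnn1g. For Nedd4l, with merged exons of 17659 bases in place of a longest transcript of 7787, it stood at 7.5 ± 0.945 in uIRI+MSC, 6.97 ± 0.405 in uIRI and 6.96 ± 0.46 in sham, below Scnn1g in every library.

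Lists of other genes of the same physiology were read beside the members in uIRI against sham, each against the 28.3% higher and 26.3% lower among all genes. These shares are with TMM, where the all-gene median log2 change was 0.06. With library size alone that median was 0.73, and no share of all genes stands beside the counts. Of 8 tested genes for channel proteases and their inhibitors, 4 rose and 2 fell (median 0.26, and 0.92 with library size alone). Serpine2, an inhibitor of serine proteases, had a log2 change of 3 ± 0.29 and rose (adjusted p = 9.05e-05). The serine protease gene Prss22 had 0 counts in both sham libraries and was at least 8.92-fold higher in uIRI+MSC and at least 19.7-fold higher in uIRI, taking 3 counts over both sham libraries as the least detectable. Such bounds cover counting error only. Furin, which cuts the alpha and gamma subunits, fell by 1.04 ± 0.16 (adjusted p = 0.000783), and Prss8, the gene of prostasin, fell by 1.59 ± 0.48 (adjusted p = 0.0218). Prss8 lost its call, with a log2 change of -1.47 without uIRI 2 (adjusted p = 0.0641), -1.79 without sham 1 (0.0517), -1.31 without sham 2 (0.122) and -0.95 with library size alone (0.106).

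Of 14 genes for kinases, ligases and adaptors of channel turnover, 6 fell and 2 rose (median -0.28, and 0.38 with library size alone, where 4 fell and 7 rose). The adaptors of NEDD4 ligases Ndfip1 and Ndfip2 fell, with log2 changes of -1.12 ± 0.16 (adjusted p = 0.000462) and -1.08 ± 0.13 (adjusted p = 0.000268). Sgk2, a kinase gene related to Sgk1, fell by 3.05 ± 0.40 (adjusted p = 0.000348), and the deubiquitinase gene Usp10 fell by 1.04 ± 0.20 (adjusted p = 0.00228, and 0.0919 with library size alone). Of 12 genes for steroid receptors, chaperones and cofactors, 8 fell and 1 rose (median -0.59, and 0.07 with library size alone, where 1 fell and 2 rose). Hsd11b1, which regenerates active glucocorticoid, fell by 1.93 ± 0.41 (adjusted p = 0.00389), and the receptor chaperone genes Hsp90aa1 and Fkbp4 fell, with log2 changes of -1.31 ± 0.29 (adjusted p = 0.00458) and -1.28 ± 0.28 (adjusted p = 0.00481). Fkbp5, a co-chaperone that glucocorticoids induce, fell by 0.75 ± 0.18 (adjusted p = 0.00727). Without sham 1, Hsd11b1 (log2 change -0.98, adjusted p = 0.0544), Hsp90aa1 (-0.94, 0.0599) and Fkbp5 (-0.63, 0.0707) missed the threshold. With library size alone Hsp90aa1 (0.0519), Fkbp4 (0.0755) and Fkbp5 (0.69) missed it.

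Of 14 genes listed as corticosteroid-induced, 9 fell and 2 rose (median -1.22, and -0.56 with library size alone). Ndrg2, Errfi1 and Klf9 fell, with log2 changes of -2.10 ± 0.20 (adjusted p = 7.95e-05), -1.70 ± 0.19 (adjusted p = 0.000172) and -1.60 ± 0.24 (adjusted p = 0.00059), while Edn1, the endothelin-1 gene, rose by 2.52 ± 0.26 (adjusted p = 0.000111). The median of this list lay below that of the members, although Sgk1 itself did not pass. Of 14 genes for the vasopressin cascade beyond its receptor, 4 fell and 3 rose (median 0.06, and 0.73 with library size alone, where 2 fell and 8 rose). The water channel genes Aqp2 and Aqp3 fell, with log2 changes of -4.32 ± 0.54 (adjusted p = 0.000284) and -2.84 ± 0.37 (adjusted p = 0.000325). Arrb2, a beta-arrestin gene, and Adcy3, an adenylyl cyclase gene, rose by 2.49 ± 0.18 (adjusted p = 3.28e-05) and 2.55 ± 0.29 (adjusted p = 0.000172).

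Of 8 tested genes for the sodium pump and potassium channels, 6 fell and none rose (median -1.66, and -1 with library size alone). The basolateral channel genes Kcnj16 and Kcnj10 fell, with log2 changes of -2.06 ± 0.31 (adjusted p = 0.00065) and -1.62 ± 0.24 (adjusted p = 0.000679). Kcnj1, the apical channel ROMK, fell by 1.69 ± 0.27 (adjusted p = 0.000842). Of 8 genes of the WNK pathway, which governs the sodium chloride cotransporter, 4 fell and none rose (median -0.57, and 0.09 with library size alone). Wnk4 and Klhl3 fell, with log2 changes of -1.42 ± 0.19 (adjusted p = 0.000393) and -1.60 ± 0.22 (adjusted p = 0.000461). Wnk1 and Cul3 fell, with log2 changes of -0.82 ± 0.15 (adjusted p = 0.00205) and -0.87 ± 0.19 (adjusted p = 0.00461), but both missed the threshold with library size alone (adjusted p = 0.391 and 0.331), and Cul3 without sham 1 (adjusted p = 0.0501).

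**Figure D5:**
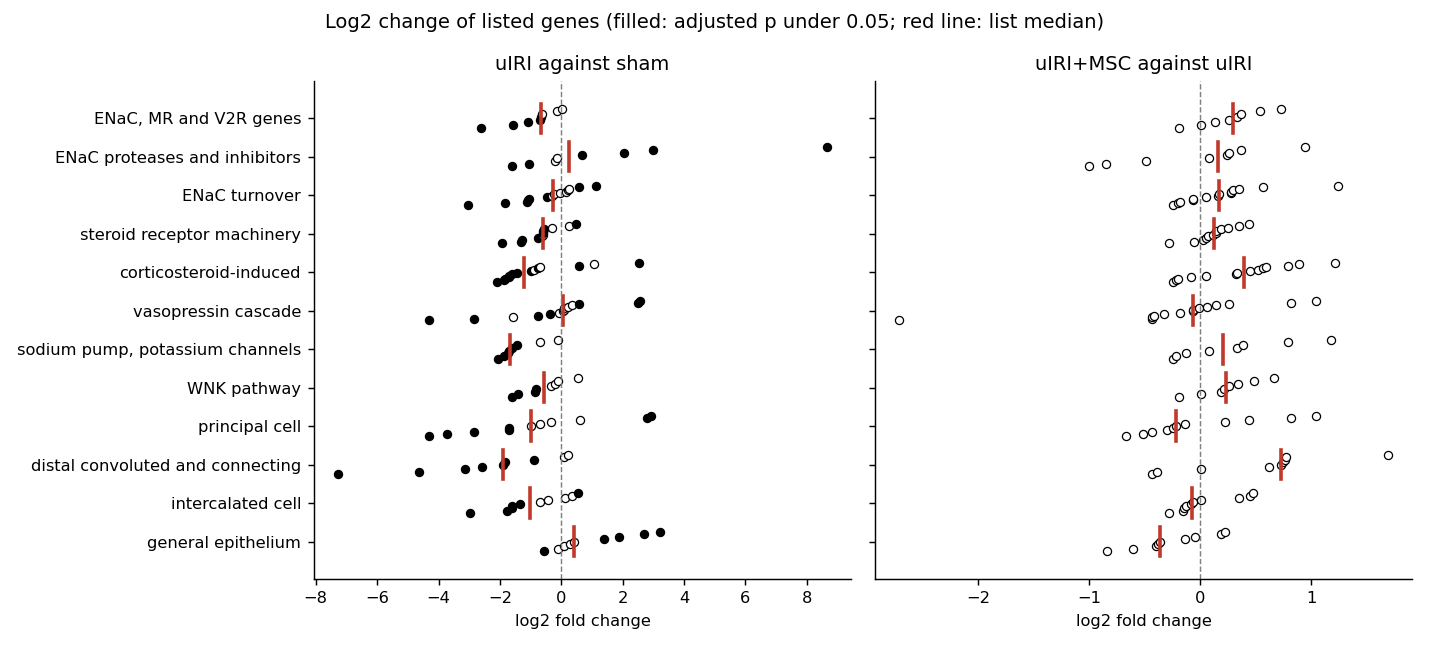
Log2 fold change (x axis) of the tested genes of each list (rows, with the 8 members at the top) in uIRI against sham and uIRI+MSC against uIRI. Filled points have an adjusted p under 0.05 by edgeR and red lines are list medians. The value of Prss22, with 0 counts in sham, is a fitted one and no bound, and no point is filled in uIRI+MSC against uIRI.

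None of these genes passed between uIRI+MSC and uIRI. Against sham, the falls in uIRI+MSC were 1 of 8 for proteases, 5 of 14 for turnover, 4 of 12 for steroid receptors, 8 of 14 for corticosteroid-induced genes, 5 of 14 for the vasopressin cascade, 6 of 8 for the pump and potassium channels and 3 of 8 for the WNK pathway, beside 20.3% of all genes. The rises were 2, 1, 0, 2, 2, 0 and 0 genes in the same order, beside 22.1% of all genes. With library size alone the falls were 0, 1, 2, 2, 3, 2 and 2 genes and the rises 5, 5, 2, 3, 6, 0 and 2. Falls then no longer outnumbered rises in the turnover, steroid receptor, corticosteroid-induced, vasopressin and WNK lists, and the pump and potassium channel list kept 2 falls and no rise. The all-gene median log2 change moved too, from 0.03 with TMM to 0.55 with library size alone. The shares of all genes above are with TMM. The counts with library size alone have none beside them and are not read as a result about these lists.

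Markers of the cells that carry these transcripts, and of other cells, were read beside the members. Of all genes, 28.3% were higher and 26.3% lower in uIRI against sham with TMM. With library size alone the all-gene median log2 change was 0.73, and no share of all genes stands beside those counts. The summed level of 11 principal cell markers was 728 to 836 CPM in uIRI+MSC, 640 to 920 CPM in uIRI and 1230 to 1650 CPM in sham, with 5 fallen and 2 risen in uIRI against sham (5 and 3 with library size alone). Aqp4, Aqp2 and Aqp3 had the smallest p, and Aqp4, a basolateral water channel, had a log2 change of -3.74 ± 0.47 (adjusted p = 0.000281). The 2 that rose, Krt18 and Stc1, had log2 changes of 2.78 ± 0.43 (adjusted p = 0.000754) and 2.91 ± 0.50 (adjusted p = 0.0013). Tfcp2l1 held the largest part of the sum in every library and did not pass (log2 change -0.32 ± 0.20, adjusted p = 0.195). Krt18, Stc1 and Tfcp2l1 were named after their values were seen. Of 9 distal convoluted and connecting tubule markers 7 fell, led by Slc12a3, Pvalb and S100g, and none rose (6 and 2 with library size alone). Their sum was 796 to 889 CPM in uIRI+MSC, 537 to 1040 CPM in uIRI and 3630 to 3640 CPM in sham. Of 10 intercalated cell markers 5 fell, led by Slc4a1, Slc26a4 and Rhbg, and 1 rose (3 and 2 with library size alone). Their sum was 278 to 376 CPM in uIRI+MSC, 253 to 354 CPM in uIRI and 486 to 601 CPM in sham. The sum of 9 general epithelial markers was 2210 to 2540 CPM in uIRI+MSC, 2160 to 2700 CPM in uIRI and 2320 to 2520 CPM in sham, with 4 risen, among them Cldn4 (3.21 ± 0.28, adjusted p = 6.41e-05), and 1 fallen (8 and 0 with library size alone). The marker that fell, Cdh16, a cadherin gene of kidney tubules named after its values were seen, holds the largest part of this sum in every library. Its mean was 1070 CPM in uIRI and 1590 CPM in sham (log2 change -0.57 ± 0.21, adjusted p = 0.0437, and 0.09 with library size alone). Krt8 averaged 293 CPM in uIRI and 111 CPM in sham, and Cldn4 173 CPM in uIRI and 18.7 CPM in sham. The part of these markers in the results for the 8 members was not tested.

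All 7 macrophage markers rose in uIRI against sham, Cx3cr1, Adgre1 and C1qa with the smallest p, with a sum of 982 to 1120 CPM in uIRI+MSC, 1550 to 2090 CPM in uIRI and 172 to 220 CPM in sham. All 6 fibroblast markers rose too, Fn1, Pdgfrb and Col3a1 with the smallest p, with a sum of 1970 to 3650 CPM in uIRI+MSC, 3340 to 7590 CPM in uIRI and 267 to 357 CPM in sham. The 6 endothelial markers summed to 433 to 542 CPM in uIRI+MSC, 549 to 572 CPM in uIRI and 461 to 527 CPM in sham. In uIRI against sham 1 rose and 1 fell, beside 28.3% and 26.3% of all genes. With library size alone 5 rose and 0 fell, where the all-gene median log2 change was 0.73. Of 7 urothelial markers, which could enter from the renal pelvis, Krt20 rose in uIRI against sham and the others did not pass (2 rose with library size alone). Their sum was 40.5 to 78.6 CPM in uIRI+MSC, 52.0 to 92.6 CPM in uIRI, and 3.50 and 63.3 CPM in sham 1 and 2. Krt20 alone stood at 37.6, 40.5 and 42.8 CPM in uIRI+MSC, 10.3, 31.8 and 20.2 CPM in uIRI, and 0 and 0.368 CPM in sham. The sum therefore rested largely on Krt20 in uIRI+MSC 1 and 2, and on other markers in sham 2. The 6 markers of adrenal cortex, where aldosterone is made, summed to at most 4.88 CPM in a library, and 4 of them were at 0 counts in both sham libraries. Their sum was 2.29 to 4.45 CPM in uIRI+MSC, 4.47 to 4.88 CPM in uIRI and 0.829 to 2.53 CPM in sham. In uIRI against sham none of the 3 tested markers passed by edgeR, and 3 rose with library size alone. Among the alternatives, DESeq2 called Mc2r (adjusted p = 0.0219) and Cyp21a1 (0.0265), and limma-voom called Cyp21a1 (0.0323). The part of these cells in the results was not tested.

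Over the 8 libraries, the members were alike to different degrees. The root mean square difference between centred log2 CPM profiles was smallest for Scnn1b with Scnn1g and for Scnn1g with Hsd11b2, both at 0.26, and largest for Nr3c2 with Avpr2 at 1.19. Scnn1a differed from Scnn1g by 0.45 and from Scnn1b by 0.65. Among 8284 other named genes with a mean of at least 5 FPKM in a group, the nearest to Scnn1a were Bckdhb (0.12) and Sv2a (0.16), to Scnn1b Enpep (0.14) and Arhgef28 (0.15), and to Scnn1g Tmem52b (0.09) and Maf (0.12). The nearest to Hsd11b2 were Lgmn (0.20) and Slc4a9 (0.21), a transporter gene of intercalated cells. Nr3c2 was nearest to Pnisr (0.22) and Clk4 (0.26), Sgk1 to Ppfibp2 (0.10) and Stk39 (0.13), Nedd4l to Ncor1 and Dnaja2 (both 0.06), and Avpr2 to Acss1 (0.21) and Ccbl2 (0.28). These distances compare 8 points that share their libraries and their group differences. They also grow with the range of a gene itself, so they do not rank likeness of shape alone. The log2 range over the libraries was 3.22 for Avpr2, 0.83 for Nedd4l and 0.74 for Sgk1.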

How the data were processed

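Gene expression was measured by mRNA sequencing in 8 libraries, which were assigned to groups by the labels. Per the file headers, the authors deposited, for each gene and library, a raw read count and an FPKM value. The submitters' processing notes name HISAT2 2.0.4, StringTie 1.3.3b, SAMtools 1.9, edgeR 3.2.0, Bowtie2 2.2.6, FastQC 0.10.1 and the build GRCm38, without the step each served. No source used here names the counter, its strand setting or the annotation release. The length behind the deposited FPKM was worked out from FPKM and counts and compared with GENCODE M21.

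Counts were filtered by filterByExpr with a minimum count of 10, scaled by TMM and tested with the quasi-likelihood test of edgeR 4.0.16 (estimateDisp, glmQLFit with legacy=TRUE, glmQLFTest) under R 4.3.3, with all 8 libraries in 1 fit and 5 residual degrees of freedom. P-values were adjusted by the method of Benjamini and Hochberg over the 16576 genes tested. The fit was tested on simulated data. Ratios used the deposited FPKM and exact permutation tests over libraries. The variance between replicate libraries was 22.1 to 79.2 times that expected from counting. The 8 members, 16 other lists and all tests were chosen with earlier results of these data known. All 8 members are named. From each pathway list the 4 genes with the smallest p in uIRI against sham are named, from each marker list up to 3, and for each member the 2 nearest profiles, except that 1 gene chosen by this rule is not reported here. Genes said to be named after their values were seen stand outside this rule. Markers were matched by symbol.

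Alternatives were DESeq2 1.42.0, limma-voom (limma 3.58.1), median-of-ratios factors, library size alone, no filter, at least 50 counts in 2 libraries, only the groups compared, a replicate block and leaving out each library. Other gene lengths were added after seeing the data. A sham group of 1 library was taken to have the spread of uIRI and uIRI+MSC. Plots were made in Python 3.11.15 (matplotlib 3.10.9).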

Additional observations from a re-analysis of the deposited data

How the results depend on the processing

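Scnn1a and Avpr2 stayed lower than sham, and called, in uIRI and in uIRI+MSC under all 16 alternatives. Members called were 4 to 6 in uIRI against sham with a library left out (4 without sham 1 or sham 2, 6 without uIRI 3) and 2 to 3 in uIRI+MSC against sham, and library size alone gave 2 in uIRI against sham. Between uIRI+MSC and uIRI, DESeq2 called 1364 genes and 1 member, Scnn1b, and leaving out a library gave 0 to 8 genes with edgeR (8 without uIRI 1). Leaving out a library gave 3938 (without sham 1) to 6914 genes in uIRI+MSC against sham, in place of 7029.

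Signs turned as follows. With library size alone, uIRI against sham gave 0.04 for Hsd11b2, 0.52 for Sgk1, 0 for Nedd4l and 0.12 for Kdr, uIRI+MSC against uIRI gave -0.14 for Scnn1a and -0.03 for Nr3c2, and uIRI+MSC against sham gave 0.27 for Hsd11b2, 0.17 for Sgk1 and 0.11 for Nedd4l. Between uIRI+MSC and uIRI, Scnn1a was -0.01 with DESeq2 and with median-of-ratios factors, and Nr3c2 was 0 with limma-voom. With a library left out, uIRI against sham ranged from -0.32 to 0.48 for Nr3c2, -0.39 to 0.20 for Sgk1, -2.22 to 1.35 for Upk1a and -0.05 to 1.30 for Star. The range for uIRI+MSC against uIRI was -0.13 to 0.16 for Scnn1a and -0.14 to 0.42 for Nr3c2, and for uIRI+MSC against sham -0.06 to 0.22 for Scnn1b, -0.17 to 0.63 for Nr3c2 and -0.56 to 0.03 for Sgk1. The cause was not tested. Nedd4l in uIRI+MSC against sham passed with DESeq2 (adjusted p = 0.0309) and with median-of-ratios factors (0.0484).

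With merged exons and with the longest transcript as gene length, the log2 level ratio of Scnn1b to Scnn1a in uIRI was -0.25 and -0.47, and that of Scnn1g to Scnn1a was -0.26 and -0.50 in uIRI+MSC, -0.81 and -1.05 in uIRI, and -1.28 and -1.52 in sham, which the lengths themselves set.

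The replicate numbers were not taken to pair the libraries, since the labels name no shared animal. Deviations from the group mean correlated by -0.09 to 0.07 between same-numbered libraries of uIRI+MSC and uIRI. Between differently numbered ones they correlated by -0.2 to 0.21. Such correlations cannot decide whether libraries were paired, because the deviations within a group of 3 are tied to each other by their mean. Under the replicate block, uIRI against sham had 5 members and 7959 genes called, uIRI+MSC against sham had 3 and 5753 (Scnn1g among the 3, adjusted p = 0.023), and neither members nor genes passed between uIRI+MSC and uIRI (0 each). Scnn1b in uIRI+MSC against sham was then -0.08.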
